A study of Mus musculus with 57 samples.

Results

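H3K4me3 at gene starts was compared between brain cortex and gastrocnemius muscle of PSAPP mice, using every H3K4me3 library of the series, 19 of its 57 libraries. The 9 cortex and 10 gastrocnemius libraries came from 10 mice, and the animal codes in the deposited names show that 9 of these mice gave both tissues. All mice carried the PSAPP genotype, whose transgenes include a chimeric mouse and human amyloid precursor protein and in which amyloid accumulates in the cortex, and all were 13 months old, housed singly and fed a fixed daily ration of a modified AIN-93 diet. Cortex and gastrocnemius thus differed by tissue and not by genotype, age or diet, and no mice without the transgenes were analysed here. No source used here gives the promoter that drives the transgenes. Both groups hold males and females, and the sex of each library was not used. Chromatin was taken from whole frozen tissue, so that fewer cells of a type and less H3K4me3 per cell cannot be told apart in any value below.

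H3K4me3 is the trimethylation of lysine 4 of histone H3, which SET1 and MLL complexes place on the nucleosomes around the starts of active genes and of many silent genes with CpG islands. Narrow domains mark most active promoters, and wide domains are known from genes that define a cell type. Cortex holds neurons, astrocytes, oligodendrocytes, microglia and vessels, while the mouse gastrocnemius is made mainly of fast muscle fibres with endothelial cells, fibroblasts and satellite cells between them.

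At each gene, the fragments of all peaks within 1 kb of the transcription start site (TSS) were summed and given per 1000000 fragments in peaks of chromosomes 1 to 19 (RPM), for 1 TSS per gene and 24963 TSSs in all. A TSS without such a peak was listed at 0, which says that no peak was called and not that the mark was absent. The smallest called peaks held 1.29 to 2.33 RPM. Each peak was counted whole, so that a wide peak gives a TSS reads from beyond 1 kb, and TSSs under the same peak share a value (3861 of the 13472 TSSs tested for read counts, 28.7%). Means are given with the SD over the 9 cortex or the 10 gastrocnemius libraries, and log2 changes are cortex minus gastrocnemius with their SE.

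The libraries were checked against markers of their labelled tissue. The summed level of 17 autosomal brain markers ran from 1407 to 1988 RPM over the cortex libraries, with 15 or 16 of the markers called in each library, and from 58.0 to 255 RPM over the gastrocnemius libraries, with 7 to 10 called. Of these markers, Snap25, Gad1, Neurod6, Gfap, Cx3cr1 and P2ry12 were called in no gastrocnemius library, and Aqp4 was called in no library of either tissue. The 18 muscle markers were called in every gastrocnemius library and summed to between 1290 and 2871 RPM there, against 203 to 230 RPM with 4 to 7 called in cortex. Most of this cortex signal came from Mylpf and Actn3. In gastrocnemius their peaks also span the starts of Tbc1d10b and Zdhhc24, and whether they do in cortex is not given here. Atp2a1, Ckm, Myh1, Myh2, Myh4, Tnnt3, Tnni2, Casq1, Myog and Smyd1 were called in no cortex library.

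At the level of whole libraries, gastrocnemius had more and wider H3K4me3 peaks, and a smaller share of them at TSSs. Reads in peaks ran from 9.32 to 18.6 M in cortex and from 9.03 to 14.8 M in gastrocnemius. Peaks numbered 21030 ± 1843 in cortex and 24680 ± 2744 in gastrocnemius (adjusted p = 0.00462, two-sided exact permutation test over 92378 relabellings, with Benjamini-Hochberg adjustment over 8 measures, as in the following). They covered 58.4 ± 4.70 Mb in cortex and 85.8 ± 13.7 Mb in gastrocnemius (adjusted p = 8.66e-05, exact permutation test), and the highest cortex library (66.9 Mb) lay below the lowest gastrocnemius library (70.7 Mb). Of the peaks, 61.7 ± 4.54% lay within 1 kb of a TSS in cortex and 50.9 ± 5.14% in gastrocnemius (adjusted p = 3.90e-04, exact permutation test). These peaks held 87.8 ± 0.669% and 83.8 ± 2.01% of the reads in peaks (adjusted p = 1.15e-04, exact permutation test), so that most of the mark lay at TSSs in both tissues. Median peak width was 2356 ± 219 bp in cortex and 2860 ± 389 bp in gastrocnemius (adjusted p = 0.00589, exact permutation test), and peaks of 4 kb or more were 20.3 ± 3.54% and 30.7 ± 7.41% of all (adjusted p = 0.00206, exact permutation test). With equally many top-scoring peaks in each library, the differences kept their direction and were 3.96% of peaks and 2.43% of reads at TSSs (adjusted p = 2.89e-05 and 5.20e-05), −864 bp of median width and −16.6% of peaks of 4 kb or more (both adjusted p = 8.66e-05, exact permutation tests). The 500 strongest TSS peaks took 10.1 ± 0.128% of the reads in cortex and 11.3 ± 0.402% in gastrocnemius (adjusted p = 8.66e-05, exact permutation test).

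**Figure D1:**
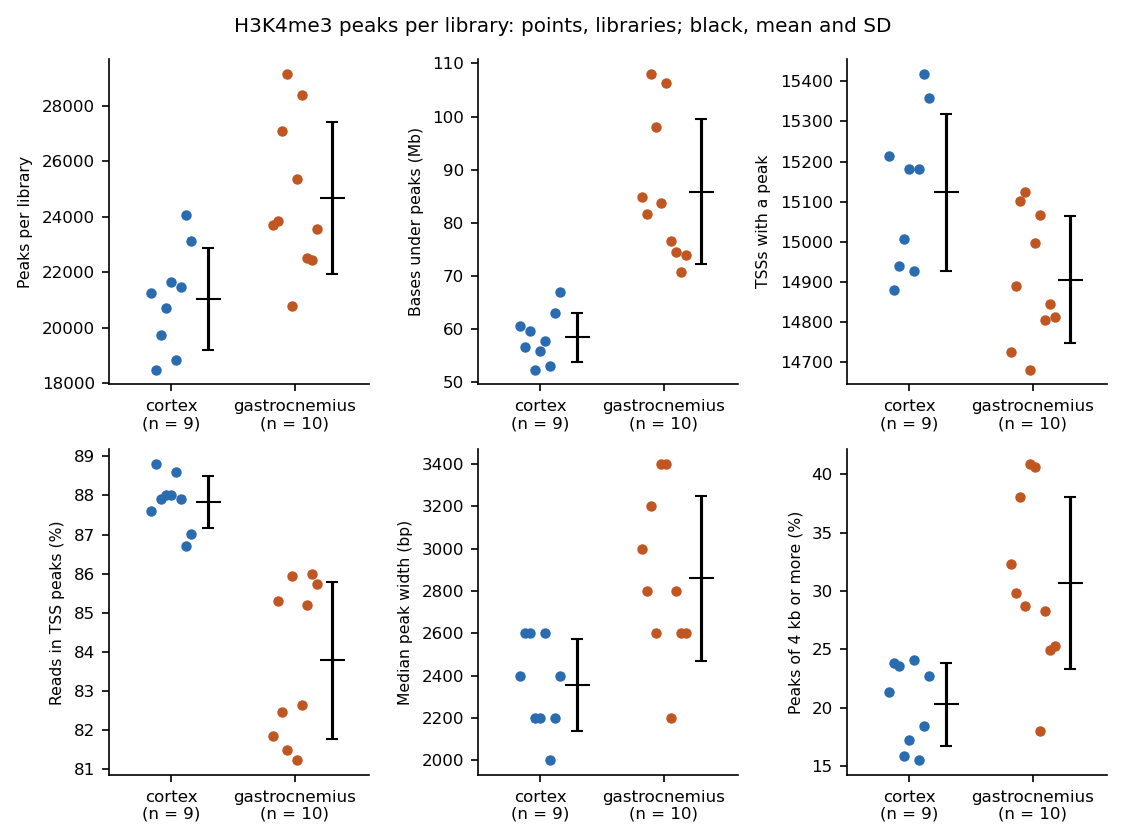
Each panel plots a value per H3K4me3 library (points) with the mean and SD (black), for 9 cortex and 10 gastrocnemius libraries: number of peaks, bases under peaks in Mb, TSSs with a peak, reads in TSS peaks in %, median peak width in bp and peaks of 4 kb or more in %. Bases under peaks and reads in TSS peaks separate the tissues without overlap, and the other panels overlap.

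The number of TSSs with a peak differed less, 15123 ± 194 in cortex and 14905 ± 158 in gastrocnemius (adjusted p = 0.0166, exact permutation test). This difference was 193 TSSs within the 9 animals with both tissues (adjusted p = 0.102, exact sign-flip permutation test) and −15.1 without the 25% of peaks with the lowest scores (adjusted p = 0.913, exact permutation test). It was 507 with equally many top-scoring peaks in each library (adjusted p = 2.89e-05, exact permutation test). The 6 libraries whose deposited names carry a number starting with S, 2 of them cortex, include both of the deepest. Without these 6 libraries, the difference in called TSSs was 94.5 (adjusted p = 0.287) and that in median width −395 bp (adjusted p = 0.0573, exact permutation tests). The deposited names of the tissues also differ in what they say of read processing, and this naming cannot be told apart from the tissue.

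The tissues shared most of their marked promoters, and a small share carried the mark in 1 tissue only. Of the 24963 TSSs, 13472 (54.0%) had a peak in every library and 8249 (33.0%) in none. A peak in every cortex and no gastrocnemius library was found at 491 TSSs (1.97%), and the opposite at 308 (1.23%). Fisher's exact test on the number of libraries with a peak called 842 TSSs more often in cortex (3.37%) and 562 more often in gastrocnemius (2.25%) at an FDR under 0.1. Calls compared within the 9 animals with both tissues gave no TSS under this FDR, with 853 and 589 at an unadjusted p under 0.05, and the smallest exact p that 9 pairs allow is 0.00391. TSSs marked only in cortex had a median of 24.5 RPM there and those only in gastrocnemius 34.8 RPM, against 72.3 and 71.1 RPM at TSSs marked in every library. Their peaks had a median width of 3.0 kb in cortex, as did those of the TSSs marked in every library, while in gastrocnemius the medians were 4.95 and 3.90 kb.

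Among cortex-only promoters other than those of small RNA and predicted genes and unnamed clones, the highest mean level was at Grin2b. Grin2b, which encodes a subunit of the NMDA glutamate receptor, ran from 192 to 240 RPM over the cortex libraries with a median of 206, and Gria2, a subunit of the AMPA receptor, from 169 to 197 RPM with a median of 187. Myt1l, a neuronal zinc finger transcription factor, reached 184 ± 14.8 RPM, and Grm7, a metabotropic glutamate receptor, 176 ± 10.2 RPM. Soga3, Brinp1, Nrg3, Fgf14, Brinp3 and Pcca followed at means from 133 to 171 RPM. The peak at Pcca also spans Zic2, and Soga3 was at 44.2 RPM in 1 cortex library and from 176 to 195 RPM in the other 8. Snap25, a core protein of synaptic vesicle fusion, ran from 116 to 134 RPM. None of these genes had a peak in a gastrocnemius library.

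Among gastrocnemius-only promoters by the same choice of genes, the highest mean level was at Hoxa9. Hoxa9, a homeobox factor of posterior and limb identity, ran from 462 to 810 RPM with a median of 655, in a peak with a median width of 34.4 kb that also held Hoxa6, Hoxa7 and Hoxa10. Hoxc10 ran from 398 to 735 RPM in a peak of 40.7 kb shared with Hoxc11 and the long noncoding RNA gene Hotair. Outside Hox clusters, Atp2a1, the calcium pump of the fast sarcoplasmic reticulum, ran from 143 to 369 RPM with a median of 201. Tnnt3, fast troponin T, ran from 120 to 322 RPM in a peak it shares with Prr33, Aqp1, a water channel of capillaries, from 158 to 271 RPM, and Mylk2, the skeletal myosin light chain kinase, from 103 to 289 RPM. Ckm, the muscle creatine kinase, ran from 72.6 to 234 RPM, and the giant sarcomere protein gene Ttn from 93.9 to 261 RPM. No cortex library had a peak at any of these TSSs.

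**Figure D2:**
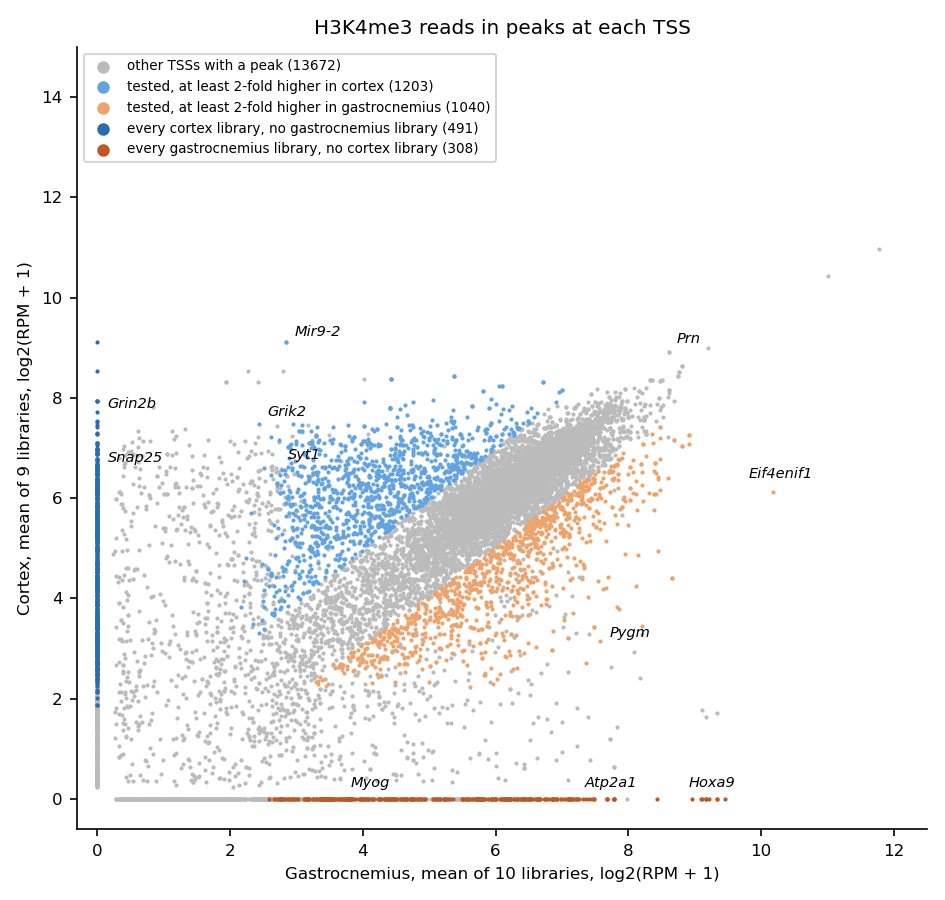
Each point is a TSS with a peak in at least 1 library, with the mean of 10 gastrocnemius libraries on the horizontal and of 9 cortex libraries on the vertical axis, both as log2(RPM + 1). The 491 cortex-only and 308 gastrocnemius-only TSSs lie on the axes by their definition, and the 1203 and 1040 TSSs at least 2-fold higher in 1 tissue flank a dense diagonal.

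The 250 bases before the TSS of such promoters are shown here, since the bases around them carried the mark in every library of 1 tissue and in none of the other. They are on the strand of the gene, from the GRCm38.p6 (mm10) assembly, and capitals mark any match, on either strand, to the motifs searched, which were the TATA box letters TATAAA, the E-box CAGCTG and its relative CAGATG, the cAMP response element TGACGTCA, the SP1 core letters GGGCGG and the core of the MEF2 motif. Those of Ckm and Atp2a1 hold CAGCTG 249 and 55 bases before the TSS, that of Ttn holds the MEF2 core, and that of Snap25 holds GGGCGG 3 times and TGACGTCA 15 bases before the TSS. For the MEF2 core only the outer letters were fixed, and any bases were allowed between them. A match is a description of these letters and not a bound site.
Ckm, gastrocnemius only, chr7:19410844-19411093, plus strand: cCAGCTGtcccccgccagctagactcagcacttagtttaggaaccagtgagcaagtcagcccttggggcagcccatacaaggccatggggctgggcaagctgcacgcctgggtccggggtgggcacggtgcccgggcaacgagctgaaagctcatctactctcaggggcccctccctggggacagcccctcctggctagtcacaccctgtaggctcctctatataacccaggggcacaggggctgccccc
Atp2a1, gastrocnemius only, chr7:126463074-126463323, minus strand: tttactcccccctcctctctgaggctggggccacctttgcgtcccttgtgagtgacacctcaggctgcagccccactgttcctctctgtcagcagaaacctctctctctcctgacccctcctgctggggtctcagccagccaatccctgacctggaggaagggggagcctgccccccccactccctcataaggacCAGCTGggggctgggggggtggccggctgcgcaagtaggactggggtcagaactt
Ttn, gastrocnemius only, chr2:76982548-76982797, minus strand: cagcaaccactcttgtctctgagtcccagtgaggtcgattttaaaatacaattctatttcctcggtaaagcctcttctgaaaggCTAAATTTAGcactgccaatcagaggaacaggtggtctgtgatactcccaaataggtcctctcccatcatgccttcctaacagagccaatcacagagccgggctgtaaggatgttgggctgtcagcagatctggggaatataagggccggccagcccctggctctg
Snap25, cortex only, chr2:136713200-136713449, plus strand: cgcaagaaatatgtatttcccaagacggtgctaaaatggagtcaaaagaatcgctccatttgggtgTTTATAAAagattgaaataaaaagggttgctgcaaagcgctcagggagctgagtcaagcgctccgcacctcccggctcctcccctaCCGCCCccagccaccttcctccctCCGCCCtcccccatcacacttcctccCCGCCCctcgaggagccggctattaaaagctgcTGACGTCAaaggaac
Grin2b, cortex only, chr6:136173546-136173795, minus strand: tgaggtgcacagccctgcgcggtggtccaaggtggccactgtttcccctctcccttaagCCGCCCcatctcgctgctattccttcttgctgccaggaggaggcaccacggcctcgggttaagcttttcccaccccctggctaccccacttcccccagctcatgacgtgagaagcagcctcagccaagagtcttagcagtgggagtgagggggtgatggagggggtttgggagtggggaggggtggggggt

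Over all promoters, those marked in 1 tissue only differed from those marked in every library in base composition, here over the 250 bases before and 50 after the TSS. The observed over expected CpG ratio had a median of 0.785 at TSSs marked in every library, 0.431 at cortex-only and 0.250 at gastrocnemius-only TSSs, and 0.529 over all TSSs. A ratio of 0.6 or more was found at 76.7%, 30.3% and 6.82% of the promoters of these classes and at 45.3% of all. CAGCTG was present in 29.9% of gastrocnemius-only and 20.4% of cortex-only promoters, against 14.1% of those marked in every library and 15.7% of all promoters. CAGATG was present in 23.4%, 15.7%, 10.5% and 15.3%, and TATAAA in 20.5%, 9.37%, 6.47% and 13.0% of the same classes. The MEF2 core was matched in 9.74%, 2.85%, 2.58% and 3.41%. Any bases were allowed in its middle, so that a match need not be a MEF2 site. GGGCGG went the other way, in 20.1% of gastrocnemius-only, 33.8% of cortex-only and 67.9% of promoters marked in every library, and in 43.8% of all. TGACGTCA was rare, in 0.974%, 1.83%, 3.53% and 2.29%. The 8249 promoters with a peak in no library had a median CpG ratio of 0.176. CAGATG was present in 22.2% of them, TATAAA in 24.0%, CAGCTG in 15.7%, the MEF2 core in 4.23%, GGGCGG in 8.95% and TGACGTCA in 0.606%. CAGATG and TATAAA thus did not set gastrocnemius-only promoters apart from those without a peak. These shares are descriptions, and the classes also differ in base composition.

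At the 13472 TSSs marked in every library, read counts differed between the tissues at most promoters, and the differences were small at most. edgeR's quasi-likelihood test called 5055 TSSs higher in cortex (37.5%) and 5464 higher in gastrocnemius (40.6%) at an FDR under 0.1. The median log2 change was −0.015, and 72.7% of the TSSs lay within 1.5-fold. At least 2-fold higher were 1203 TSSs in cortex (8.93%) and 1040 in gastrocnemius (7.72%), and at least 4-fold higher 544 and 238. The libraries of the tissues did not overlap at 1177 of the 1203 and at 910 of the 1040. These TSSs were chosen by the same read counts, so that little overlap follows from the choice. The share without overlap over all tested TSSs is not given here. Over the tested TSSs, Spearman's rho between libraries ran from 0.960 to 0.981 within cortex, from 0.911 to 0.974 within gastrocnemius and from 0.633 to 0.738 between the tissues, the last including pairs from 1 animal. When only the share of each peak within 1 kb of the TSS was counted, 667 and 675 TSSs were at least 2-fold higher in cortex and in gastrocnemius.

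The 10 largest changes toward cortex are given for TSSs whose levels did not overlap between the tissues, without small RNA and predicted genes, and each of these TSSs had a small gastrocnemius peak in every library. Grik2, a kainate receptor subunit, ran from 160 to 188 RPM in cortex with a median of 179 and from 2.55 to 6.19 RPM in gastrocnemius with a median of 4.23 (log2 change 5.32 ± 0.10, FDR = 7.88e-20). Cacna1e, a voltage-gated calcium channel, ran from 137 to 157 RPM against 3.51 to 7.79 RPM (4.84 ± 0.13, FDR = 1.23e-17), and Syt1, the calcium sensor of synaptic vesicles, from 133 to 154 RPM against 3.79 to 8.35 RPM (4.64 ± 0.12, FDR = 8.78e-18). Elfn2 changed by 4.72, the adhesion receptor Adgrb3 by 4.47, the adenosine receptor Adora1 by 4.44 and the growth factor gene Ptn by 4.36 on the log2 scale, and Amer2, Phyhip and Ttyh1 by 4.34 to 4.54. Counting only the share of each peak within 1 kb, the 10 changes ran from 2.09 at Elfn2 to 3.08 at Adora1, and each was still called.

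Of the 10 largest changes toward gastrocnemius, 8 are given here, again without small RNA and predicted genes. Pygm, muscle glycogen phosphorylase, ran from 150 to 289 RPM in gastrocnemius with a median of 171 and from 5.70 to 10.8 RPM in cortex with a median of 7.73 (log2 change −4.57 ± 0.16, FDR = 3.97e-15). Ebf3, Meox2 and En1, which encode developmental transcription factors, changed by −4.15, −4.10 and −4.09, the potassium channel gene Kcna7 by −4.06, Hotairm1 by −4.05 and Prkag3, a muscle subunit of AMP kinase, by −3.97. The peak of Hotairm1 also holds Hoxa2. Eif4enif1 stood out by its spread, with 74.1 to 2854 RPM in gastrocnemius and 63.6 to 74.0 RPM in cortex (−4.09 ± 0.82, FDR = 0.000192), and in 5 of the 10 gastrocnemius libraries its value was that of Sfi1, under the same peak. With the animal as a block its change was −2.22 (FDR = 0.0696). Counting only the share of each peak within 1 kb, the change was −0.44 at Eif4enif1 and from −3.15 at En1 to −1.60 at Hotairm1 in the other 7, and each was still called.

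**Figure D3:**
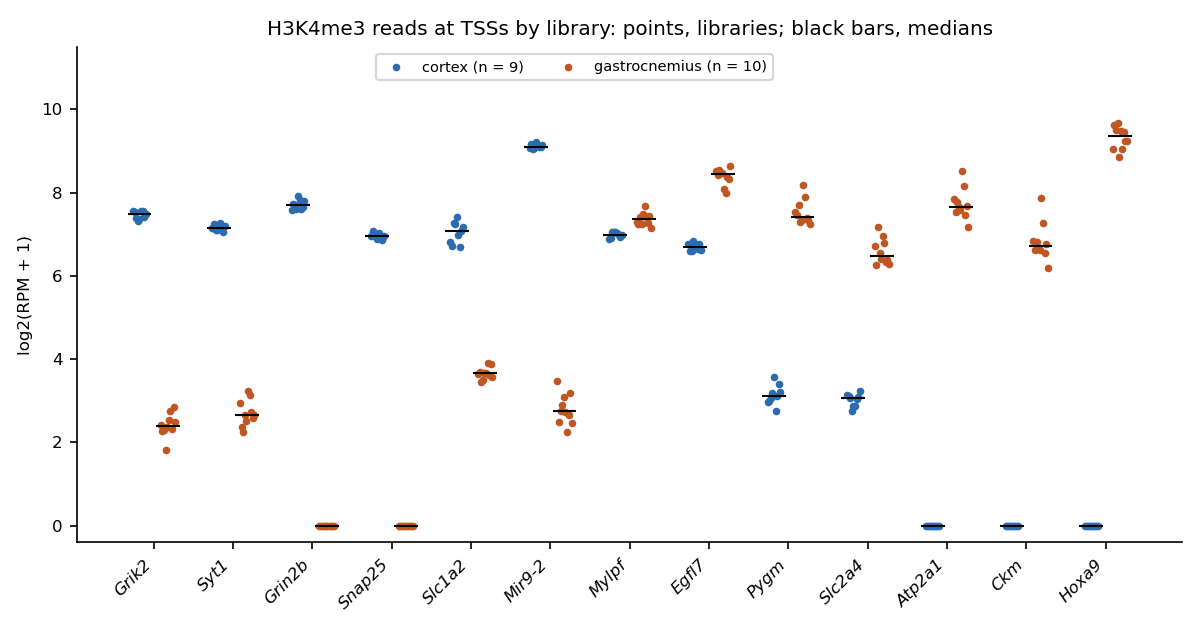
The vertical axis gives log2(RPM + 1) at the TSSs of 13 genes, with a point per library (9 cortex, 10 gastrocnemius) and black bars at the medians. Cortex lies above gastrocnemius at the 6 genes on the left, from Grik2 to Mir9-2, and below at the other 7, with Mylpf the closest pair of groups, and points at 0 are libraries with no peak.

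The highest mean levels over all 19 libraries were at Mir101c, with 1563 to 2335 RPM in cortex and 2674 to 5100 RPM in gastrocnemius, and at Sfi1, with 1123 to 1629 and 1643 to 2854 RPM in peaks with a median width of 73.8 and 76.0 kb. Both were higher in gastrocnemius, by log2 changes of −0.81 and −0.58. Their gastrocnemius peaks began at bases 3014601 and 3128501 at the median, near the start of the chromosome. Whether reads map uniquely there was not tested, so that these levels need not be promoter H3K4me3. Tnrc18, also among the 5 highest by this mean, had 511 ± 20.5 and 589 ± 27.3 RPM. The prion protein gene Prnp, under the same peak as the annotated locus Prn, had 483 ± 149 RPM in cortex and 389 ± 124 RPM in gastrocnemius (log2 change 0.31 ± 0.31, FDR = 0.369), and with the animal as a block the change was 0.37 (FDR = 0.00458). Its levels overlapped between the tissues, with 1 library of each tissue far below the others, at 106 RPM in cortex and 56.6 RPM in gastrocnemius, and both of these libraries came from the same animal.

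Among all TSSs, 1.97% were marked only in cortex and 3.37% called more often there, and 8.93% of those tested were at least 2-fold higher there, the background to the neuronal and glial lists. Of 32 receptor genes for glutamate and GABA, 13 were marked only in cortex and 16 were called more often there by Fisher's test, and 9 of the 10 tested were at least 2-fold higher in cortex and none in gastrocnemius (median log2 change 1.99). Gria1, Gria2, Grin2b and Grm7 were among the 13, while Gabrb2, a subunit of the GABA-A receptor, had 93.4 ± 4.47 RPM in cortex and 5.86 ± 1.25 RPM in gastrocnemius. Of 26 synaptic vesicle and scaffold genes, 3 were marked only in cortex (Snap25, Cplx1, Shank2) and 15 of 21 tested were at least 2-fold higher there (median 2.43). Sv2b, a vesicle protein, and Nlgn1, a postsynaptic adhesion protein, changed by 3.83 and 3.16. Counting the share of each peak within 1 kb, 12 synaptic and 5 receptor genes passed 2-fold.

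Of 20 factors that specify cortical neurons, Neurod1 and Neurod6 were marked only in cortex, and 6 of 14 tested were at least 2-fold higher in cortex, with a median of 0.98. By the share within 1 kb 4 passed 2-fold, with a median of 0.12. Emx1, Sox11, Bhlhe22 and Neurod2 changed by 3.19, 2.99, 2.46 and 2.11. Of 8 interneuron genes tested, 6 were at least 2-fold higher in cortex and 2 in gastrocnemius (median 1.5), and 2 and 2 by the share within 1 kb (median 0.08). Gad1, which makes GABA, was marked only in cortex at 42.4 to 177 RPM, Dlx5 and Dlx6 changed by 3.92 and 3.68, and Pvalb, a calcium buffer of both fast interneurons and fast muscle fibres, was marked only in gastrocnemius at 53.9 to 200 RPM, while within 2.5 kb every cortex library also had a peak there. Cortex library 2 had 418 RPM at Dlx5 and Dlx6, where the other 8 had at most 145 and 210 RPM.

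Each list of oligodendrocyte, astrocyte and microglial genes held TSSs marked only in cortex and none marked only in gastrocnemius. Of 18 oligodendrocyte and myelin genes, 4 were marked only in cortex (Ermn, Mobp, Mog and Enpp6, at 36.3, 36.3, 30.0 and 6.97 RPM), 3 of 6 tested were at least 2-fold higher in cortex (Ugt8a, Mal, Nkx2-2) and 2 in gastrocnemius, among them Cspg4, which pericytes also express (20.5 ± 3.72 against 46.1 ± 6.44 RPM). Of 15 astrocyte genes, 3 were marked only in cortex (Gfap, Aldoc, Gjb6), and 3 of 10 tested were at least 2-fold higher in cortex and 1 in gastrocnemius. Counted by the share within 1 kb, the numbers past 2-fold in cortex and in gastrocnemius were 1 and 3 for astrocyte genes and 2 and 2 for oligodendrocyte genes. Slc1a2, the main astrocyte glutamate transporter, changed by 3.50, from 102 to 171 RPM in cortex against 9.89 to 13.9 RPM. Of 24 microglial genes, 3 were marked only in cortex (Cx3cr1, Trem2, Siglech), 9 were called more often there and 3 were called in no library. Their levels were low, 12.1 ± 3.22, 9.50 ± 3.64 and 7.12 ± 1.77 RPM, and Lpl, a lipase that fat and muscle also use, was higher in gastrocnemius (44.5 ± 6.38 against 198 ± 17.9 RPM).

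Genes of the contractile apparatus were marked mainly in gastrocnemius. Of 47 sarcomere and Z-disc genes, 26 were marked only in gastrocnemius and 31 were called more often there, and 4 of 9 tested were at least 2-fold higher in gastrocnemius (among them Pdlim3, Tpm2 and Actn2) and none in cortex (median −0.76). By the share within 1 kb 3 of the 9 passed 2-fold and Actn2 was at −0.54. With peaks within 2.5 kb 6 of 11 passed, with a median of −1.65. Of all TSSs, 1.23% were marked only in gastrocnemius and 2.25% called more often there, and 7.72% of those tested were at least 2-fold higher there, a background that also applies to the muscle, vessel and matrix lists that follow. Of the fast myosin heavy chain genes, Myh4 had 52.5 ± 36.9 RPM, Myh2 29.7 ± 10.6 RPM and Myh1 24.3 ± 10.5 RPM, and these 3 ranges overlapped. Myot, a Z-disc protein, had 175 ± 39.4 RPM. Mylpf and Actn3 were called in every cortex library and changed by −0.40 and −0.67, and counted by the share within 1 kb the changes were 0.44 and 0.08.

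Calcium handling and the neuromuscular junction gave 11 of 27 genes marked only in gastrocnemius and 2 of 6 tested at least 2-fold higher there (Cacng6, Chrnb1), with a median of −0.45. Of the 6, 1 passed 2-fold by the share within 1 kb, where Chrnb1 was at −0.85 and the median was 0.11, and with peaks within 2.5 kb 4 of 8 passed, with a median of −1.44. Casq1, the calcium store of the reticulum, had 88.2 to 178 RPM, Jph2, which ties the reticulum to the surface membrane, 116 to 194 RPM. Ryr1, the release channel, had 59.7 to 133 RPM in gastrocnemius and at most 6.97 RPM in the 5 cortex libraries that called it. Metabolic genes of muscle gave 8 of 24 marked only in gastrocnemius (among them Ckm, Ckmt2, Mb and Cd36, the fatty acid transporter with 170 ± 56.8 RPM) and 8 of 12 tested at least 2-fold higher there, with all 12 called higher in gastrocnemius (median −1.58). Slc2a4, the insulin-responsive glucose transporter, had 76.0 to 143 RPM in gastrocnemius and 5.79 to 8.41 RPM in cortex (−3.76 ± 0.15, FDR = 1.10e-14). By the share within 1 kb, 4 of these 12 passed 2-fold.

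Among 25 myogenic and regulatory factors, 4 were marked only in gastrocnemius and 6 of 14 tested were at least 2-fold higher there. Of the 14, 9 were called higher in gastrocnemius and 3 higher in cortex, Mef2c by 0.97 (−0.16 when any curated start was counted), Msc by 0.92 and Mef2a by 0.12, the last not called by the share within 1 kb (0.08, FDR = 0.527). By that share 4 passed 2-fold in gastrocnemius and 1 in cortex. Pax7, the factor of satellite cells, had 25.2 to 59.3 RPM, Smyd1, a muscle methyltransferase, 40.7 to 79.5 RPM, and Myog and Myf5 15.8 ± 4.06 and 15.5 ± 2.79 RPM. Myod1 and Myf6 had 75 ± 17.9 and 99.1 ± 18.3 RPM in gastrocnemius and were called in 6 cortex libraries each, at no more than 4.83 and 3.97 RPM. Tbx15, Eya1 and Pax3 changed by −2.86, −2.07 and −1.64.

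Of 19 endothelial and mural genes, all 14 tested were called higher in gastrocnemius, 11 of them at least 2-fold (median −1.50). Egfl7, an endothelial signal that hosts Mir126a, had 255 to 397 RPM in gastrocnemius and 95.1 to 113 RPM in cortex (−1.71 ± 0.07, FDR = 7.97e-15), and the junction genes Pecam1 and Cdh5 and the factor gene Sox18 changed by −2.67, −2.59 and −2.15. Of 25 fibroblast and matrix genes, 4 were marked only in gastrocnemius (Col6a3, Col3a1, Dpt, Mfap5, at means of 33.9 RPM or less) and 9 of 15 tested were at least 2-fold higher there. Of these 15, 11 were called higher in gastrocnemius, 3 were not called and 1 was called higher in cortex. The last was Thy1, a surface protein of neurons as well as fibroblasts, at 92.0 ± 6.00 RPM in cortex and 13.4 ± 2.85 RPM in gastrocnemius (2.77 ± 0.09, FDR = 2.18e-16). Fabp4, of fat cells and capillaries, was marked only in gastrocnemius at 60.0 to 123 RPM, and 3 of 5 adipocyte genes tested were at least 2-fold higher there. By Fisher's test 2 of the 14 adipocyte genes were called more often in cortex and 1 in gastrocnemius, and 5 had no peak in any library. By the share within 1 kb, 9 endothelial, 6 fibroblast and 1 adipocyte genes passed 2-fold. Of 9 Schwann cell genes, Prx was marked only in gastrocnemius and Cdh19 only in cortex, at 10.2 ± 3.81 and 6.27 ± 2.86 RPM. Of 17 blood and lymphoid genes, 13 had no peak in any library and 1 was tested.

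**Figure D4:**
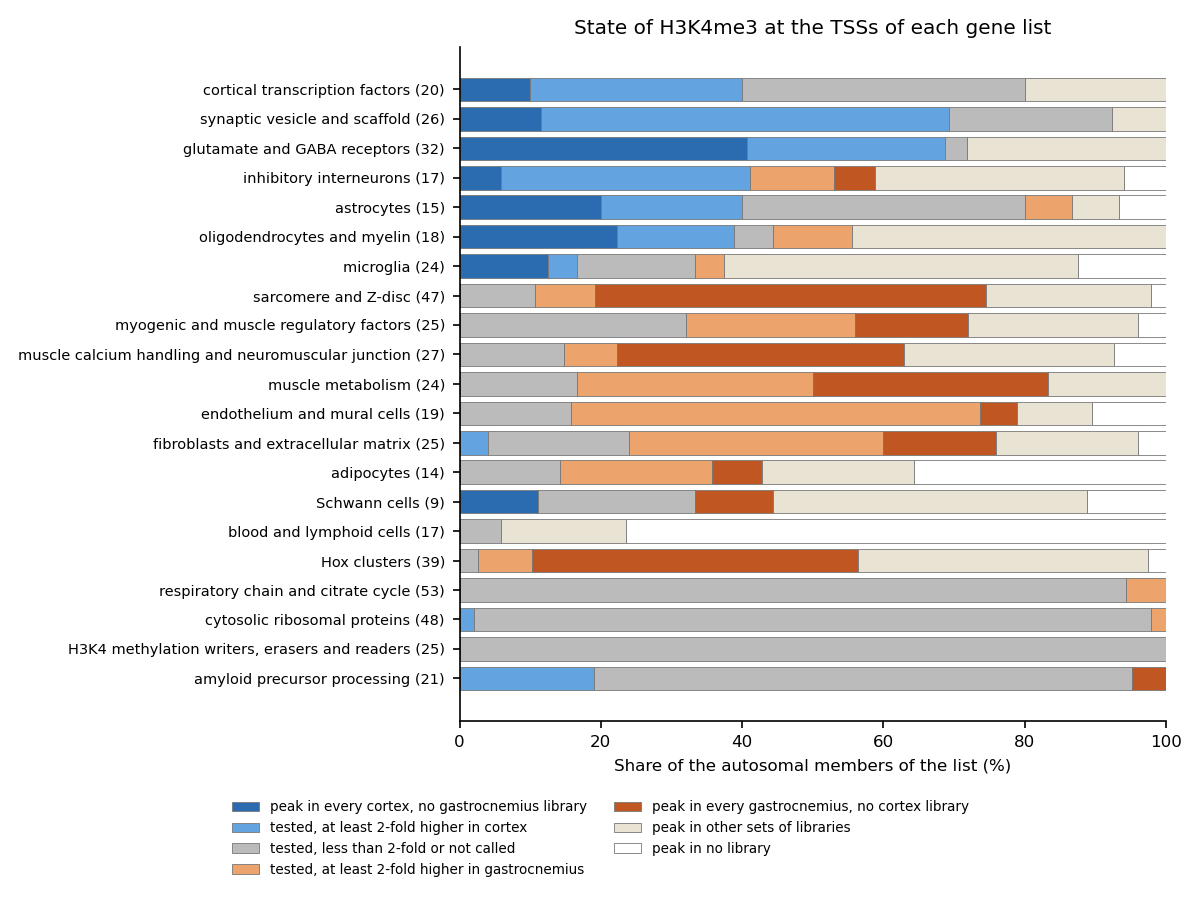
Bars give, for each of 21 gene lists with the number of autosomal members in brackets, the share of members in % marked only in cortex, tested and at least 2-fold higher in cortex, tested and neither, at least 2-fold higher in gastrocnemius, marked only in gastrocnemius, marked in other sets of libraries, or marked in no library. Neuronal lists are blue on the left, muscle, vessel, matrix and Hox lists orange, and respiratory, ribosomal and H3K4 enzyme lists grey almost throughout.

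Hox genes, which set position along the body axis, were marked mainly in gastrocnemius. Of 39 Hox genes, 18 were marked only in gastrocnemius, against 1.23% of all TSSs, 25 were called more often there and none in cortex, and Hoxb13 had no peak. Of the 4 tested, 3 were at least 2-fold higher in gastrocnemius, among them Hoxd9 and Hoxa4, with 5.09 ± 1.36 and 3.69 ± 0.444 RPM in cortex and 79.4 ± 14.2 and 48.3 ± 4.13 RPM in gastrocnemius. Hoxd1 differed little, at 12.1 ± 2.24 RPM in cortex and 14.5 ± 2.73 RPM in gastrocnemius (−0.25 ± 0.13, FDR = 0.0835). The summed level of the list was 27.9 to 62.3 RPM over the cortex libraries and 4505 to 9721 RPM over the gastrocnemius libraries, which counts the wide peaks once for each gene under them. Gastrocnemius library 9 had 45.4 RPM at Hoxa10 and 130 RPM at Hoxc11, against at least 462 and 473 RPM in the other 9.

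Of 53 respiratory chain and citrate cycle genes, all had a peak in every library, as did 54.0% of all TSSs. None was at least 2-fold higher in cortex and 3 were in gastrocnemius (median −0.09), where 8.93% and 7.72% of all TSSs tested were. Among the 3 was Atp5b, a subunit of ATP synthase, with 126 to 143 RPM in cortex and 131 to 424 RPM in gastrocnemius. At any size 3 were called higher in cortex and 31 in gastrocnemius, where 37.5% and 40.6% of all TSSs tested were. With the animal as a block, 1 respiratory gene passed 2-fold, in gastrocnemius, and the change of Atp5b was −0.93 (FDR = 0.00880). Of 48 cytosolic ribosomal protein genes, 1 passed 2-fold in each direction, Rps15 in cortex and Rpl18 in gastrocnemius, and both peaks span other genes. At any size 4 ribosomal protein genes were called higher in cortex and 28 in gastrocnemius. By the share within 1 kb, no gene of either list passed 2-fold and the change of Atp5b was 0.24, that of Rpl18 0.00 and that of Rps15 0.15, the last not called (FDR = 0.478). All 25 genes for writers, erasers and readers of H3K4 methylation were marked in every library and none passed 2-fold. Below 2-fold, 6 of them were called higher in cortex and 12 in gastrocnemius, and 7 were not called. The shares of all TSSs given for the respiratory genes apply here as well. Kmt2a and Kmt2e, members of the MLL family, changed by 0.41 and −0.47, and by −0.08 and 0.64 when counted by the share within 1 kb.

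Of 21 genes of amyloid precursor processing, 20 were marked in every library, 14 of them were called higher in cortex and 4 higher in gastrocnemius. Of all TSSs, 54.0% were marked in every library, and 37.5% and 40.6% of those tested were called higher in cortex and in gastrocnemius. At least 2-fold higher in cortex were Aplp1, a paralog of App (93.2 ± 4.48 against 17.7 ± 2.21 RPM, 2.39 ± 0.07, FDR = 1.64e-17), Clu, an amyloid-binding chaperone (2.01), Mme, the amyloid-degrading enzyme neprilysin (1.19), and the sorting receptor gene Sorl1 (1.18). App itself had 187 ± 5.19 RPM in cortex and 124 ± 17.1 RPM in gastrocnemius (FDR = 3.63e-09), and Bace1, the β-secretase gene, 151 ± 5.59 and 113 ± 7.87 RPM. Ide, the insulin-degrading enzyme, was marked only in gastrocnemius at the TSS used, at 4.0 to 14.3 RPM. By the share within 1 kb, Aplp1 was the only one to pass 2-fold and Sorl1 was no longer called (0.22, FDR = 0.156).

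The level of microRNA loci was taken at the start of the hairpin, for loci chosen after values were seen. Of 14 loci of brain microRNAs, 2 were marked only in cortex (1.97% of all TSSs were), and of the 7 tested 5 were called higher in cortex and 1 in gastrocnemius, where 37.5% and 40.6% of all tested were. Mir138-2 was called in 3 gastrocnemius libraries, at no more than 9.13 RPM, and Mir128-1, Mir128-2 and Mir138-1 had no peak in any library. Of 12 loci of muscle microRNAs, 6 were marked only in gastrocnemius, under 4 peaks, against 1.23% of all TSSs, 4 had no peak in any library and none was tested. Mir9-2 had 526 to 590 RPM in cortex and 3.79 to 10.1 RPM in gastrocnemius (log2 change 6.49 ± 0.15, FDR = 2.09e-18), in a cortex peak with a median width of 29.6 kb. Mir9-1 changed by 3.45 ± 0.11, and Mir9-3 had 318 ± 18.7 RPM in cortex and 2.85 ± 2.08 RPM in the gastrocnemius, where 7 libraries called it. Mir137 changed by 4.26 ± 0.12, from 122 to 154 RPM in cortex against 4.09 to 9.86 RPM. Of the 3 miR-124 loci, Mir124a-2 was marked only in cortex at 225 to 254 RPM, and Mir124a-1 and Mir124a-3 changed by 2.95 and 2.44. Counting only the share of each peak within 1 kb, the changes were 2.81 at Mir9-2, 0.60 at Mir9-1, 2.59 at Mir137, 1.97 at Mir124a-1 and 1.17 at Mir124a-3, and each was still called. Mir219a-2, whose miRNA acts in oligodendrocytes, was marked only in cortex at 28.1 to 38.7 RPM. Mir219a-1, which gives the same mature miRNA and lies under the peak of Ring1, was marked in every library, at 97.5 to 279 RPM in cortex and 288 to 314 RPM in gastrocnemius (−0.69 ± 0.20, FDR = 0.00419), and by the share within 1 kb it was not called (−0.09). Mir132, whose peak also spans Hic1, had 112 ± 23.5 RPM in cortex and 152 ± 45.1 RPM in gastrocnemius (FDR = 0.104), and it was called higher in gastrocnemius with the animal as a block (−0.59, FDR = 4.84e-04) and by the share within 1 kb (−0.26, FDR = 0.0455).

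On the muscle side, Mir1a-1 had 138 to 267 RPM, Mir486, inside Ank1, 96 to 194 RPM, and the pair Mir1a-2 and Mir133a-1, under 1 peak, 70.9 to 154 RPM, with no peak in a cortex library. Mir23a and Mir27a, under 1 peak, had 14.7 to 308 RPM with a median of 266. Within 2.5 kb of the hairpin, every cortex library also had a peak at Mir1a-1, and the call difference between the tissues was lost at Mir23a and Mir27a. Mir206, Mir133b, Mir499 and Mir208a had no peak within 1 kb of the hairpin in any library, Mir133a-2 had one in 3 gastrocnemius libraries, and Mir208b in 1 cortex library (4.08 RPM). The mature miRNAs of these loci present in the RefSeq table are shown with the seed, bases 2 to 8, in capitals, and the 5 seeds differ from each other.
miR-9-5p, of Mir9-1, Mir9-2 and Mir9-3: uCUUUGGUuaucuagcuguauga
miR-137-3p, of Mir137: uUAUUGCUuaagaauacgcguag
miR-219a-5p, of Mir219a-1 and Mir219a-2: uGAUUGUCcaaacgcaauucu
miR-23a-3p, of Mir23a: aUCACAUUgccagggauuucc
miR-27a-3p, of Mir27a: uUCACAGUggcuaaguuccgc

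Peaks at the same promoters were wider in gastrocnemius. limma on log2 width called 9027 of the 13472 TSSs wider in gastrocnemius (67.0%) and 1422 wider in cortex (10.6%), with a median log2 change of −0.412, a width ratio of 1.33. At least 2-fold wider were 1391 in gastrocnemius (10.3%) and 384 in cortex (2.85%). When the widths of each library were centred on its median, the counts were 3579 and 3344 at the FDR threshold and 509 and 740 at 2-fold, and cortex took 48.3% of the calls in place of 13.6%. The median change after this centring was −0.033.

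Width went with read count at the strongly changed promoters. Of the 1203 TSSs at least 2-fold higher in cortex, 377 were also at least 2-fold wider there and 9 were wider in gastrocnemius, and of the 1040 at least 2-fold higher in gastrocnemius, 605 were at least 2-fold wider there and 0 wider in cortex. Widths and reads come from the same peaks, and this is a description. The largest width changes toward cortex were at Grik2 (12.2 against 1.20 kb, log2 change 3.38 ± 0.12), Dgki, a diacylglycerol kinase (8.40 against 1.20 kb), Elfn2 (11.2 against 1.90 kb), Slc24a2, a sodium and calcium exchanger (9.40 against 1.6 kb), and Rasgrp1, a Ras activator (8.80 against 1.6 kb). Toward gastrocnemius they were at Hotairm1 (1.20 against 10.9 kb, −3.49 ± 0.19), Smtnl2 (1.6 against 18.9 kb), Coq8a, a kinase-like protein of coenzyme Q synthesis (2.40 against 26.1 kb), Meox2 (1.80 against 18.2 kb) and Usp2, a deubiquitinase (1.80 against 19.5 kb). At Coq8a the reads changed by −2.03 when the whole peak was counted and by 0.74 when only the share within 1 kb was, and at Usp2 by −2.59 and −0.22, the latter not called (FDR = 0.225).

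Some genes carried the mark at a different start in each tissue. Of 2481 genes with more than 1 annotated start, 7 had a start called more often in cortex and another called more often in gastrocnemius by Fisher's test, and in 3 of these both starts were marked in every library of 1 tissue and none of the other. A cortex start beside another start marked in every library was found in 159 genes, and a gastrocnemius start of that kind in 109. These genes were chosen by this pattern. Rbfox1, a splicing factor of neurons and muscle, had 59.9 to 86.1 RPM at its first start in cortex and no peak there in gastrocnemius. The third start of Rbfox1, at 7069835 on chromosome 16, had 54.1 to 143 RPM in gastrocnemius and no peak in cortex, and the start between them was marked in both, at 37.2 and 7.39 RPM. Camk2a, a kinase of synapses, had 142 to 178 RPM in cortex at its first start and 28.5 to 75.1 RPM in gastrocnemius at its second, and Phactr1, an actin regulator, had 107 RPM in cortex at the first of 4 starts and 12 RPM in gastrocnemius at the fourth. The 250 bases before the 2 Rbfox1 starts are given because each carries the mark in 1 tissue only, with motif letters in capitals as above: none was found before the first, and CAGCTG lies 72 bases before the third.
Rbfox1, start 1, cortex only, chr16:5884543-5884792, plus strand: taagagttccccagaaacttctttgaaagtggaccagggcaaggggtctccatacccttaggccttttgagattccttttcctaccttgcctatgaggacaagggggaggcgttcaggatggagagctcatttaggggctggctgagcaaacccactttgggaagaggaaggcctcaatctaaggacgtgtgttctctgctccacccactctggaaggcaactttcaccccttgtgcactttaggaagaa
Rbfox1, start 3, gastrocnemius only, chr16:7069585-7069834, plus strand: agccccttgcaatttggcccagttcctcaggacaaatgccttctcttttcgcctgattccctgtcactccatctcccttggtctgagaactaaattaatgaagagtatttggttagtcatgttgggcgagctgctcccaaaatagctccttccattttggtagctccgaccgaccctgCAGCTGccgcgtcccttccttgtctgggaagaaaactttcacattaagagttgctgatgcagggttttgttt

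The other marks of the same tissues were set beside these promoters, without a test. H3K27ac, a mark of active promoters and enhancers, was present in every cortex library at 69.7% of the cortex-only TSSs and in every gastrocnemius library at 3.46%, against 59.0% and 57.2% of all TSSs. At the gastrocnemius-only TSSs the shares were 23.4% in cortex and 95.5% in gastrocnemius. H3K27me3, the mark of Polycomb repression, was present in every gastrocnemius library at 45.2% of the cortex-only TSSs and in every cortex library at 31.4% of them, both above the shares of all TSSs. At gastrocnemius-only TSSs it was present in every cortex library at 29.9% and in every gastrocnemius library at 7.79%, against 13.6% and 12.8% of all TSSs. Among TSSs marked by H3K4me3 in every library, those at least 2-fold higher in cortex had H3K27me3 in every gastrocnemius library at 59.9% and in every cortex library at 21.5%, and those at least 2-fold higher in gastrocnemius at 15.7% and 38.5%. All 13472 such TSSs had it at 11.4% and 9.71%. The libraries of a mark hold other sets of reads from the same animals, and whether the marks lie on the same cells was not tested.

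**Figure D5:**
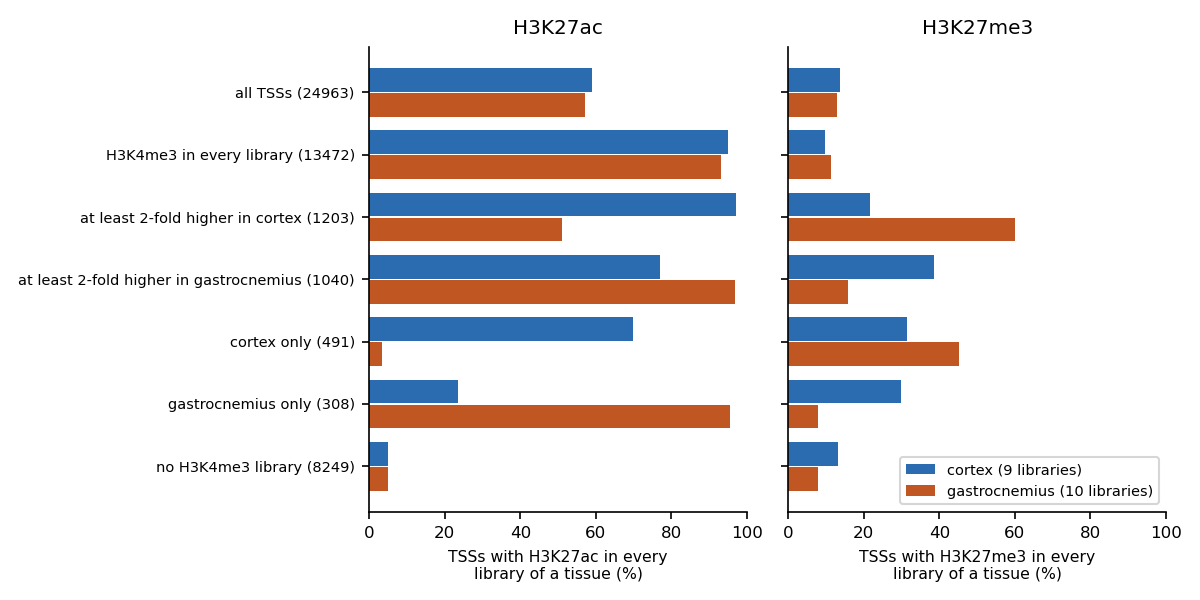
Bars give the share of TSSs in %, for 7 classes of H3K4me3 with the number of TSSs in brackets, that have an H3K27ac (left) or H3K27me3 (right) peak in every cortex library (blue, 9) or every gastrocnemius library (orange, 10). H3K27me3 is highest, at 59.9%, in gastrocnemius at promoters at least 2-fold higher in cortex.

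Away from TSSs the tissues shared less. Sites present in at least 3 libraries numbered 21886 in cortex and 24677 in gastrocnemius, and 81.8% and 68.1% of them overlapped a site of the other tissue by at least 1 bp. For these sites a TSS was any of the 28148 curated starts, and not 1 TSS per gene. Of the sites within 1 kb of a TSS, 92.5% in cortex and 94.9% in gastrocnemius overlapped, and of the 8004 and 11644 other sites 63.2% and 38.2%. Gastrocnemius thus held 7192 sites of its own away from TSSs, and cortex 2945. The median width of sites away from TSSs was 2.0 kb in cortex and 3.20 kb in gastrocnemius. Gastrocnemius sites cover more bases, so that the shares of the tissues are not symmetric.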

How the data were processed

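H3K4me3 peak lists of 9 cortex and 10 gastrocnemius libraries were used, and H3K27ac and H3K27me3 lists of the same tissues for presence only. Per the submitters' processing notes and the study's methods, the authors used BWA, SAMtools and the mm10 build, and called peaks in each library separately with epic2. The deposited ChIP counts are whole fragments in each peak, and the deposited score was used only to rank peaks. Only called peaks are listed, so that 0 means no call. Groups came from the labels. Reads in peaks ran from 9.03 to 18.6 M, and differences between libraries were larger than counting error (chi-square per degree of freedom of 5.17 or more).

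Peaks on chromosomes 1 to 19 were joined to 1 TSS per gene of curated RefSeq transcripts (GRCm38.p6), the start with most transcripts among starts grouped within 500 bp. Counts of peaks within 1 kb were summed. edgeR 4.0.16 (quasi-likelihood, TMM, R 4.3.3) tested the 13472 TSSs with a peak in all libraries, limma 3.58.1 tested log2 peak width there, and Fisher's exact test compared the numbers of libraries with a peak at all 24963 TSSs, with Benjamini-Hochberg adjustment and an FDR of 0.1. Library values were compared by exact permutation (SciPy 1.17.1, pandas 2.3.3, Python 3.11.15). Fits had no animal block. Animal codes in the deposited names pair 9 cortex with 9 gastrocnemius libraries, and deviations of the same animal correlated by −0.0647 to 0.0876. Samples were separate libraries of separate animals within a tissue. The scripts were checked on simulated data.

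Alternatives were other scalings, DESeq2 1.42.0, the animal block, windows of 500 bp and 2.5 kb, the share of each peak within 1 kb, a minimum of 20 reads, uncalled TSSs at 0 reads, centred widths, stricter peak scores, other consensus rules and each library left out. Counting at any curated start of the gene was added after the data were seen. Named genes were the 10 largest count changes per direction without overlap, the 10 strongest 1-tissue-only TSSs per tissue, the 5 largest width changes per direction, the tissue markers, up to 4 members per gene list and the 5 highest TSSs, the first 3 kinds without predicted genes, small RNA genes and repeats of a shared peak. MicroRNA loci, genes with opposite starts, Prnp, App and Bace1 were named after their values were seen, and some genes that the rule names are not reported here. The members and gene lists were chosen with earlier results of these data known.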

Additional observations from a re-analysis of the deposited data

Results flagged for a closer look

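Of 237 levels of a gene in a tissue, the following had 1 library far from the others of its tissue by Dixon's criterion, which chance meets in about 1 of 20 groups, and none of 18 library values did. Gastrocnemius library 6 was the highest of its tissue at Ckm (234 RPM, others at most 154), Myh4 (148, others at most 71.0), Actn3 (162, others at most 127), Ryr1 (133, others at most 88.0), Myog (26.1, others at most 18.5), Ttn (261, others at most 164), and at the pair Mir1a-2 and Mir133a-1 (154, others at most 110 RPM), and it was the lowest at Prn and Prnp (56.6 RPM, others at least 347). Cortex library 5, from the same animal, was also the lowest of its tissue at Prn and Prnp (106 RPM, others at least 463). These genes except Prn and Prnp are muscle genes, and the library also covers 106.4 Mb with peaks. Gastrocnemius library 9 was low at Hoxa10 (45.4 RPM) and Hoxc11 (130 RPM), library 5 was high at Prx (19.5 RPM) and low at Mir132 (28.7 RPM), library 4 was high at Ide (14.3 RPM) and library 10 low at Nkx2-2 (13.2 RPM). Cortex library 2 was high at Dlx5 and Dlx6 (418 RPM) and low at Kcna7 (3.22 RPM). Cortex library 4 was low at Soga3 (44.2 RPM), library 5 was high at Mir9-1 (316 RPM), library 6 was low at Mir132 (52.2 RPM), and library 8 was high at Ebf3 (20.1 RPM).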

How the results depend on the processing

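Counting the share of each peak within 1 kb gave 667 and 675 TSSs at least 2-fold higher in cortex and in gastrocnemius and 3775 and 3312 at any size, 53.3% of the calls toward cortex in place of 48.1%, and it turned the direction at Coq8a (0.74), Mylpf (0.44), Atp5b (0.24) and Kmt2e (0.64), while Actn3 (0.08), Rpl18 (0.00), Kmt2a (−0.08), Sorl1 (0.22), Rps15 (0.15), Mef2a (0.08), Usp2 (−0.22) and Mir219a-1 (−0.09) were no longer called. With uncalled TSSs at 0 reads, 2504 and 2074 TSSs passed 2-fold. Centred widths gave 3344 wider in cortex and 3579 in gastrocnemius, 740 and 509 at 2-fold, and turned the width change at Mir101c (0.38), Sfi1 (0.33) and Tnrc18 (0.35), and at Mef2a to 0.12, not called. Counting any curated start turned the read change at Mef2c (−0.16, FDR = 0.0904). The difference in called TSSs was −15.1 without the 25% lowest-scoring peaks (adjusted p = 0.913) and 507 with equally many top-scoring peaks (adjusted p = 2.89e-05), and without the libraries with S numbers it was 94.5 (adjusted p = 0.287) and that in median width −395 bp (adjusted p = 0.0573). The cause of these changes was not tested.

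With the animal as a replicate block, 5094 and 5163 TSSs were called higher in cortex and in gastrocnemius, 1207 and 997 at 2-fold, and 1386 and 8588 wider. The difference in called TSSs was 193 (adjusted p = 0.102), and the paired call test gave 0 TSSs in each direction, since 9 pairs allow no p under 0.00391. The other library differences kept their side of the threshold under the block, and the other counts over all TSSs stayed within 1.5 times. Over the gene lists the block moved 2-fold counts in gastrocnemius from 3 to 1 respiratory and from 1 to 2 ribosomal genes, and gave 1 myogenic factor in cortex in place of 0.

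Sites in at least 2 libraries overlapped the other tissue at 80.3% in cortex and 65.2% in gastrocnemius (61.7% and 36.7% away from any curated start), sites in every library at 85.8% and 80.6% (66.3% and 44.8%), and with 50% of the site overlapped at 79.6% and 53.5% (62.0% and 27.9%). Leaving out each library gave 4989 to 5186 TSSs higher in cortex and 5254 to 5407 in gastrocnemius, 1195 to 1252 and 1006 to 1062 at 2-fold, 1361 to 1496 and 8627 to 9335 wider, 370 to 426 and 1228 to 1533 at 2-fold, 491 to 530 cortex-only and 308 to 326 gastrocnemius-only TSSs, and 745 to 822 and 485 to 544 by Fisher's test. The library differences then ran from −4083 to −3152 peaks, −29.1 to −25.0 Mb, 181 to 248 called TSSs, 9.89 to 11.6% of peaks and 3.77 to 4.30% of reads at TSSs, −578 to −444 bp, −11.8 to −9.28% of peaks of 4 kb or more and −1.25 to −1.10% of reads in the top 500. Other scalings, DESeq2, the windows, the minimum of 20 reads and the added count at any start moved none of the counts over all TSSs by over 1.5 times. Over the gene lists, peaks within 2.5 kb moved 2-fold counts in gastrocnemius from 4 to 6 for sarcomere and Z-disc genes, from 2 to 4 for calcium handling and from 0 to 1 for amyloid processing, and the call difference was no longer significant at Casq1, Mir1a-1, Mir23a, Mir27a, Neurod1, Pvalb and Soga3. Without the S-number libraries 5 oligodendrocyte genes passed 2-fold in cortex in place of 3, and 1 in gastrocnemius in place of 2. In cortex, 8 cortical factors in place of 6, 8 interneuron genes in place of 6 and 1 myogenic factor in place of 0 passed. In gastrocnemius, 6 fibroblast genes in place of 9 and 1 synaptic gene in place of 0 passed. Without the 25% lowest-scoring peaks the call difference was lost at Cdh19, Cx3cr1, Enpp6, Ide, P2ry12, Siglech and Trem2. Only called peaks are listed, so that weak H3K4me3 below the caller's limit cannot be told from none.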
